A study of Mus musculus with 4 samples.

Results

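Broad unmethylated valleys are stretches of several kilobases in which CpG methylation is low throughout, set in a genome where most CpGs are methylated. In whole-genome bisulfite sequencing (WGBS) of E11.5 mouse brain, 640 valleys were found, chosen by measured methylation in 1 of the 4 libraries. A region was a 1 kb stretch of an autosome with at least 3 CpGs covered by at least 5 reads in all libraries, and 1863069 regions were tested. A valley was a run of at least 4 adjacent regions, each below 15% methylation in the wild-type (WT) library at 3 ppm, where the level is the share of methylated reads summed over the CpGs of a region. The valleys held 4412 core regions, 0.237% of those tested. The 2 regions beyond each end were the edges, and 1902 edge regions were scored. Because the WT library at 3 ppm chose the valleys, its own levels are given as a description, and tests rest on the other libraries.

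The 4 brains came from single male embryos of the line labelled 129S6.cg Tet1<tm1Koh>, an allele first made in B6 mice and backcrossed to 129S6. A Tet1 knockout (KO) and a WT embryo were taken from dams fed 30 ppm folic acid (FA), an excess, and another KO and WT pair from dams fed 3 ppm, the control diet. All diets also held succinylsulfathiazole, an antibiotic that limits folate made by gut bacteria, and tissue was taken from the forebrain to the hindbrain. Each group is a single library (1 per group), values therefore carry no SD, and a test between libraries does not measure the variation between embryos. The study describes a short Tet1 transcript in brains of both genotypes, with TET1 protein below detection on Western blots in KO as in WT. Its list of brains for a related assay, matched by embryo number, gives both KO embryos a neural tube defect, both WT embryos a normal phenotype and all 4 different litters, so genotype, phenotype and litter cannot be told apart. A level pools all cells of a brain, so a change in every cell and a change in the mixture of cells cannot be told apart either.

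Broad valleys, also called DNA methylation valleys or canyons, are known to cover genes of developmental transcription factors, many of them held by Polycomb in tissues that do not use them. Their borders are places where methyltransferases and TET enzymes compete. TET1 oxidises 5-methylcytosine, the first step of its removal, and binds CpG-rich unmethylated DNA.

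Mean reads per autosomal CpG ran from 13.2 in KO at 30 ppm to 21.2 in KO at 3 ppm, with 14.3 and 16.2 in the WT libraries. Mitochondrial CpGs, taken as unmethylated, read as 0.914% to 0.938% methylated, which gives the background of incomplete conversion. KO and WT stood at 84.4% and 82.6% over all tested regions at 30 ppm, and at 83.8% and 83.3% with the control diet. Expression of cell type markers is not measured by this assay, so the labelled tissue was not checked.

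Stretches of the 3 valleys with the largest edge difference of the named rule are printed to show the DNA on either side of a boundary, as set in the WT library at 3 ppm. Each is 300 bases of the plus strand of GRCm38, 5′ to 3′, with every CpG in capitals. The edge stretch is the window with most tested CpGs in the edge region of largest difference, and the core stretch was taken the same way from the nearest core region, passing over annotated untranslated exons.
Tfap2b edge, chr1:19228419-19228718: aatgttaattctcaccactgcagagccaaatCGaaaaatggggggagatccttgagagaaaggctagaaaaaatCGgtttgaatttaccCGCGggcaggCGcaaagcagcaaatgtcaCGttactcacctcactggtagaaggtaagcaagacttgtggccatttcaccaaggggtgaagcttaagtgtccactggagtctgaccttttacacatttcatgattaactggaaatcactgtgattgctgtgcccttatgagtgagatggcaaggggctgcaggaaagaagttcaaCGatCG
Tfap2b core, chr1:19230642-19230941: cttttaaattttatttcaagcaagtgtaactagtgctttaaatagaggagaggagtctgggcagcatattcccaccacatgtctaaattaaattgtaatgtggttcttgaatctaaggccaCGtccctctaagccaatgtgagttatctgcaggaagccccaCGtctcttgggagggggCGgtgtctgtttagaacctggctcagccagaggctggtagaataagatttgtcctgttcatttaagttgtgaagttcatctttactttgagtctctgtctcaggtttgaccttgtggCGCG
Ankrd63 edge, chr2:118705517-118705816: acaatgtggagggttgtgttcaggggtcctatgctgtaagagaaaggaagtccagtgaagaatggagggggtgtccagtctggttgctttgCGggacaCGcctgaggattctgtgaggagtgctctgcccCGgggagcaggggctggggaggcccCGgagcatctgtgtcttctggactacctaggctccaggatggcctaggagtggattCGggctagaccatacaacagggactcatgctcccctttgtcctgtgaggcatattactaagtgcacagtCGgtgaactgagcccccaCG
Ankrd63 core, chr2:118704296-118704595: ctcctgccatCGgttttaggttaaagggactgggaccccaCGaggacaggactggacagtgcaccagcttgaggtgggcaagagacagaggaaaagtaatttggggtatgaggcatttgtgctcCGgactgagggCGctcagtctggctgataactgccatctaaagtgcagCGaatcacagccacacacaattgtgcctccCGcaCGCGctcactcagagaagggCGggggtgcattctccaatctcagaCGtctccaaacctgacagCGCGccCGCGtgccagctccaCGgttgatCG
Sox17 edge, chr1:4489001-4489300: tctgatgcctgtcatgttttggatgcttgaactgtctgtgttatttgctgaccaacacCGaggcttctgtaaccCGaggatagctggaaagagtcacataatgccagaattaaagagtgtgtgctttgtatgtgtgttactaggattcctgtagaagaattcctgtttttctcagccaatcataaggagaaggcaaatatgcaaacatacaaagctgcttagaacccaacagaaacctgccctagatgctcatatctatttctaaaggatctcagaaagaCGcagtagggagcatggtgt
Sox17 core, chr1:4490606-4490905: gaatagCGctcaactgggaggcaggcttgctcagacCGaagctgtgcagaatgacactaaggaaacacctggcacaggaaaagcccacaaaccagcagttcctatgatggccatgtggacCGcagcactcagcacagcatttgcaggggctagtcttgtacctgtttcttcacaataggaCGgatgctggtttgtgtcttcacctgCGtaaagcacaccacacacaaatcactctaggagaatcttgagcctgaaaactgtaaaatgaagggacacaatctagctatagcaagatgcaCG
Tfap2b encodes a transcription factor of neural crest, Sox17 a transcription factor of endoderm and vessels, and Ankrd63 an ankyrin repeat protein. The 8 CpGs of the Tfap2b edge stretch were methylated at 43.0% in KO against 1.23% in WT at 30 ppm, and at 39.9% in KO against 14.3% in WT at 3 ppm. The core stretch of that valley read 17.6% and 1.67% at 30 ppm, but KO lay lower there at 3 ppm, with 2.65% against 6.10%. Thus the KO and WT levels were far apart on the edge side in both diets. In WT at 30 ppm, however, the Tfap2b edge stretch did not lie above the core stretch. The Ankrd63 edge stretch, with 7 CpGs, read 66.7% in KO against 18.2% in WT at 30 ppm, with 69.5% and 15.4% at 3 ppm. Its core stretch held 14 tested CpGs within the same 300 bases and stayed between 0.595% and 2.54% in all libraries. The stretch does not stand for the whole Ankrd63 core. That core read 14.3% in KO against 7.46% in WT at 30 ppm, with 13.8% and 3.78% at 3 ppm. The Sox17 edge stretch had only 3 CpGs, at 69.6% in KO against 37.2% in WT at 30 ppm, with 62.3% and 29.1% at 3 ppm, and its core stretch read 21.1% and 5.97% in the first diet, with 33.6% and 11.6% in the second.

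The valleys had a median width of 5 kb and the widest spanned 29 kb. Of the 640 valleys, 210 were exactly 4 regions wide, the least the rule allows, and 118 were 10 or more. The core was CpG rich, with a median of 30 CpGs per kb against 10 in edges and 8 over all tested regions, and its median ratio of observed to expected CpGs was 0.476 against 0.211 in edges and 0.180 overall. Edges were thus close to ordinary DNA in CpG content. A protein-coding gene started in the core of 380 valleys (59.4%), 231 others had a start within 50 kb, and 29 had none. The 1280 valley ends offered 2560 edge positions, of which 465 were untested and 134 were the core of a neighbouring valley. The first position was untested at 345 ends, and 45 pairs of valleys were separated by a single untested region, which a rule with gaps would join. Of the 1902 scored edge regions, 185 were themselves below 15% in the WT library at 3 ppm.

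Many valleys held the start of a developmental transcription factor gene. Of 39 autosomal Hox genes, which set position along the body axis, 28 started in a valley core, and 74 of 129 other homeobox genes did so, against 1.99% of all autosomal protein-coding genes. T-box genes (9 of 16), Sox genes (6 of 18), basic helix-loop-helix genes (17 of 55), developmental zinc finger genes (22 of 78) and forkhead genes (10 of 41) followed. The share was lower for Wnt pathway genes (8 of 48), nuclear receptor genes (5 of 38), BMP and FGF genes (5 of 52), axon guidance genes (6 of 66) and potassium channel genes (1 of 92). No ribosomal protein gene (0 of 75) and no Hedgehog pathway gene (0 of 10) started in a core, though only 4 of the Hedgehog starts lay in a tested region, against 73 of the ribosomal protein starts.

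At 30 ppm, methylation was higher in KO than in WT at valley edges and, by fewer points, inside valleys. Pooled over edge regions, the level was 56.2% in KO against 46.8% in WT, a difference of 9.41 points (95% interval 9.13 to 9.70). In cores it was 7.44% and 5.08%, a difference of 2.36 points (2.29 to 2.43), and over all tested regions 1.84 points. These intervals cover counting error only, and a read counts at each CpG it covers, so they are too narrow for the difference between embryos.

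Fisher's exact test was run per region, two-sided and adjusted by Benjamini-Hochberg over all 1863069 regions. A region was hyper at an adjusted p under 0.05 with a rise of at least 10 points. It was hypo at such a p with a fall of that size. The tested counts were summed over the CpGs of a region, so a read counts at each CpG it covers. Such counts are not independent, and the p-values can be too small even for the difference between a pair of libraries. Of the edge regions, 221 of 1902 (11.6%) were hyper in KO at 30 ppm, and of the core regions 184 of 4412 (4.17%), where 1.13% of all tested regions were. The core share was 2.72% with at least 10 reads per CpG and 2.65% with low regions defined as below 10%. The first of these settings also changes which regions are tested, and the share of all regions under it was not computed. No edge and no core region was hypo, where 0.0487% of all regions were. That share is so small that a lack of hypo regions is not read as a trait of edges or cores. The median difference was 7.89 points in edges, 1.31 in cores and 1.23 over all regions, and 82.6% of edge regions stood above 0 against 59.3% of all regions. Only 418 core regions (9.47%) had a WT level of 10% or more at 30 ppm, so few could have fallen by 10 points, while 1723 edge regions (90.6%) could. A rise of 10 points was open to regions at 90% or below in that library, which were 100% of cores and 94.7% of edges but 64.4% of all tested regions.

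The difference peaked just outside the boundary. In the first region outside, the pooled levels were 53.0% in KO against 41.2% in WT at 30 ppm, and 140 of 913 regions (15.3%) were hyper. In the second, the difference was 7.29 points and 8.19% were hyper. It declined to 4.37 points in the fifth region and was 3.65 points in the 10th. Inward, with 2 valleys of high read depth left out, the difference was 4.35 points in the outermost core region, 2.56 in the next and 1.45 in the fifth. Only wide valleys reach the fifth position, with 259 regions against 1276 in the outermost. Over all valleys 98 of 1280 end regions (7.66%), 49 of 1280 second regions (3.83%) and 37 of 1852 deeper core regions (2.00%) were hyper. The KO curve thus lay above the WT curve on both sides, with the widest gap within 1 kb of the boundary.

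**Figure D1:**
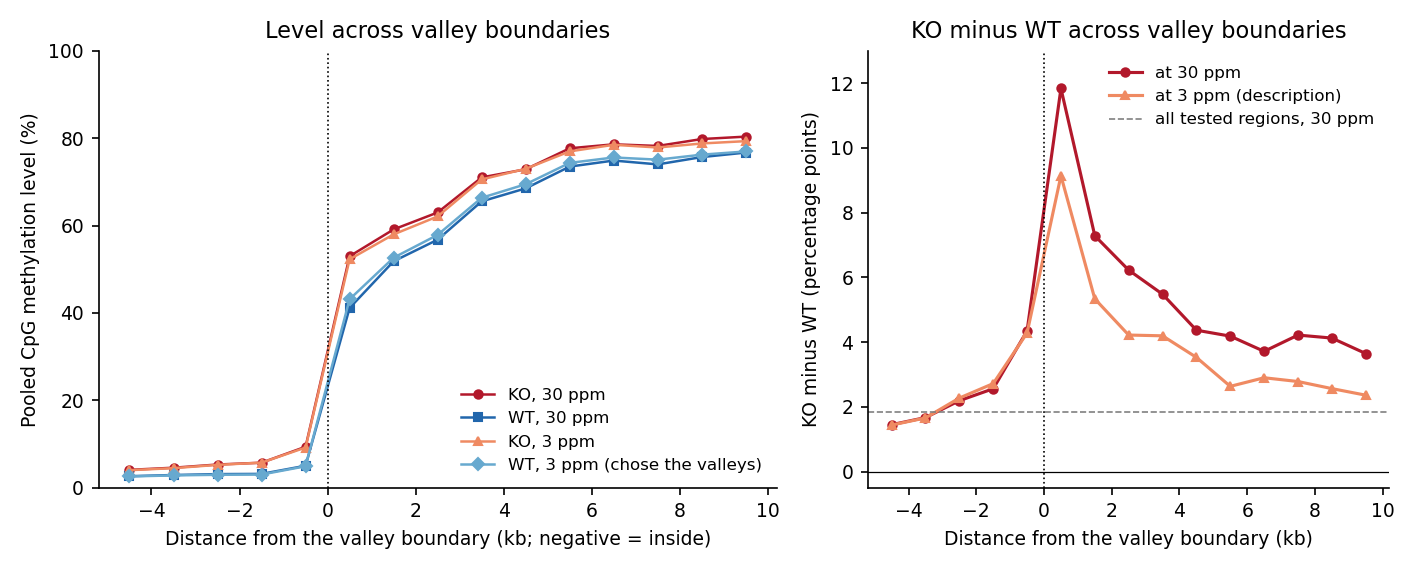
Left, pooled methylation level (%) of the 4 libraries by distance (kb) from the valley boundary, inside to the left of 0; right, KO minus WT in percentage points at each diet, with the 30 ppm value of all tested regions as a dashed line. Inside points leave out 2 valleys of high read depth, and the 30 ppm difference rises from 4.35 points in the outermost core region to 11.8 in the first region outside.

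Valley by valley, the edge difference at 30 ppm had a median of 9.16 points and ran from -8.49 to 42.2, and 583 of the 632 valleys with a scored edge (92.2%) were above 0. It reached 10 points in 286 valleys and fell to -10 in 0. For cores the median was 2.19 points, 592 of 640 valleys were above 0, and 30 reached 10 points. A hyper edge region was found in 182 valleys and a hyper core region in 144. Both occurred in 53 valleys, and 367 had neither. Where both sides were scored, 390 of 515 valleys were above 0 on both sides, 115 on 1 side and 10 on neither. Across valleys the edge and core differences were weakly related (Pearson's r 0.149, Spearman's rho 0.155, 632 valleys of the same libraries), and so were the left and right edges (r 0.0527, 515 valleys).

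**Figure D2:**
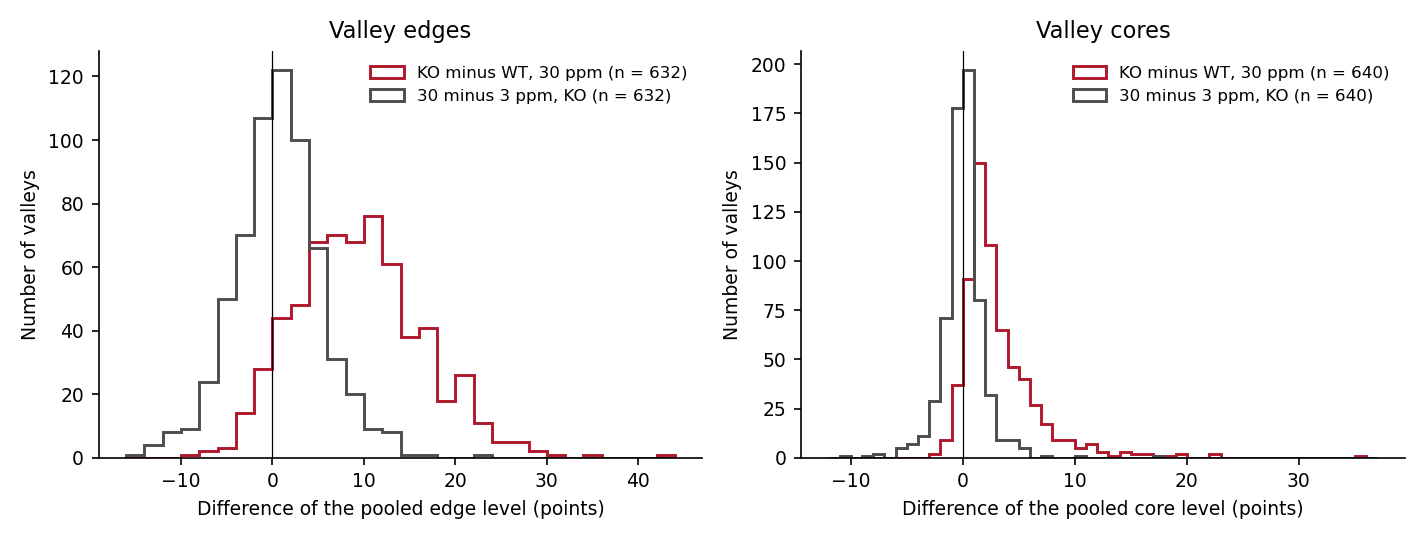
Number of valleys by the difference of their pooled level in points, for edges (left) and cores (right), as KO minus WT at 30 ppm and as 30 minus 3 ppm in KO. The KO minus WT distribution of edges has a median of 9.16 points, while the diet distribution in KO has a median of 0.695 points.

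Across widths, edge differences lay close together, while the share of hyper core regions was lower in wide valleys. The pooled edge difference was 8.51 points for valleys of 4 regions, 9.74 for 5 to 6, 10.8 for 7 to 9, 8.87 for 10 to 14 and 10.1 for 15 or more, and the share of hyper edge regions lay between 10.5% and 12.6%. In cores the hyper share was 6.79% at 4 regions and 1.63% at 15 or more. A valley of 4 regions holds only end and second regions, so width and position in the valley were not told apart. Rank correlation across valleys with width was 0.0652 for edges and -0.136 for cores. Both differences were above 0 on most chromosomes, edges on 19 of 19 (7.86 to 11.9 points) and cores on 18 of 19.

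The exception in cores was chromosome 17 (-0.460 points; 2.52 without 1 valley). That valley lies at chr17:39843001-39849000 and overlaps a sequence that RefSeq relates to 18S ribosomal RNA. Its reads per CpG were 12.8 to 18.1 times the median region, and it held 12.8% to 17.2% of all core reads summed over CpGs. The valley read 14.3% in KO against 15.2% in WT at 30 ppm, with 16.5% and 12.8% at 3 ppm. A further valley on chromosome 13 stood at 3.61 to 5.53 times the median depth. Without both, the pooled core level was 6.31% in KO against 3.59% in WT at 30 ppm, 2.72 points apart (2.65 to 2.79), above 0 on 19 of 19 chromosomes, and the 184 hyper regions were the same, since neither valley held one.

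Edges were set beside other regions of like level. Runs of 1 to 3 low regions, 14258 in all, were taken as narrow runs. The low regions of these runs read 10.9% in KO against 6.16% in WT at 30 ppm, 4.73 points apart where valley cores differed by 2.36, and 8.36% of them were hyper. Pooled over their 47654 edge regions the difference at 30 ppm was 6.12 points, and 6.90% were hyper. Edges of narrow runs leave out regions below 15% in WT at 3 ppm, while edges of broad valleys hold 185 such regions. The pooled values of these 2 kinds of edges are therefore not built alike. Set against regions of the same level in the WT library at 3 ppm, which takes no part in this contrast, edges of broad valleys at 30% to 45% differed by 14.3 points (13.5 to 15.1), edges of narrow runs by 11.2 (11.1 to 11.4) and other regions by 8.64 (8.55 to 8.72). At 60% to 75% the values were 8.89, 7.26 and 3.96 points. The hyper shares of broad and narrow edges lay near each other, at 18.6% and 17.5% in the first of these bins and 8.04% and 7.13% in the second, while other regions stood at 8.77% and 2.50%. Broad valleys thus had the larger pooled difference in each bin from 15% up, and the difference between kinds of edges was not tested. The hyper shares were not matched for reads, on which a call depends. At 30% to 45%, the median reads of a region in KO at 30 ppm, summed over CpGs, were 98 at broad edges. They were 124 at narrow edges and 80 in other regions. In the 15% to 30% bin KO at 30 ppm read 32.5% at broad edges, 32.3% at narrow edges and 32.4% in other regions. The larger difference of broad edges there lay in WT at 30 ppm, which read 19.7%, 21.9% and 23.3%. Levels in WT at 3 ppm were not fully matched within that bin, at 21.3%, 22.3% and 22.8%.

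**Figure D3:**
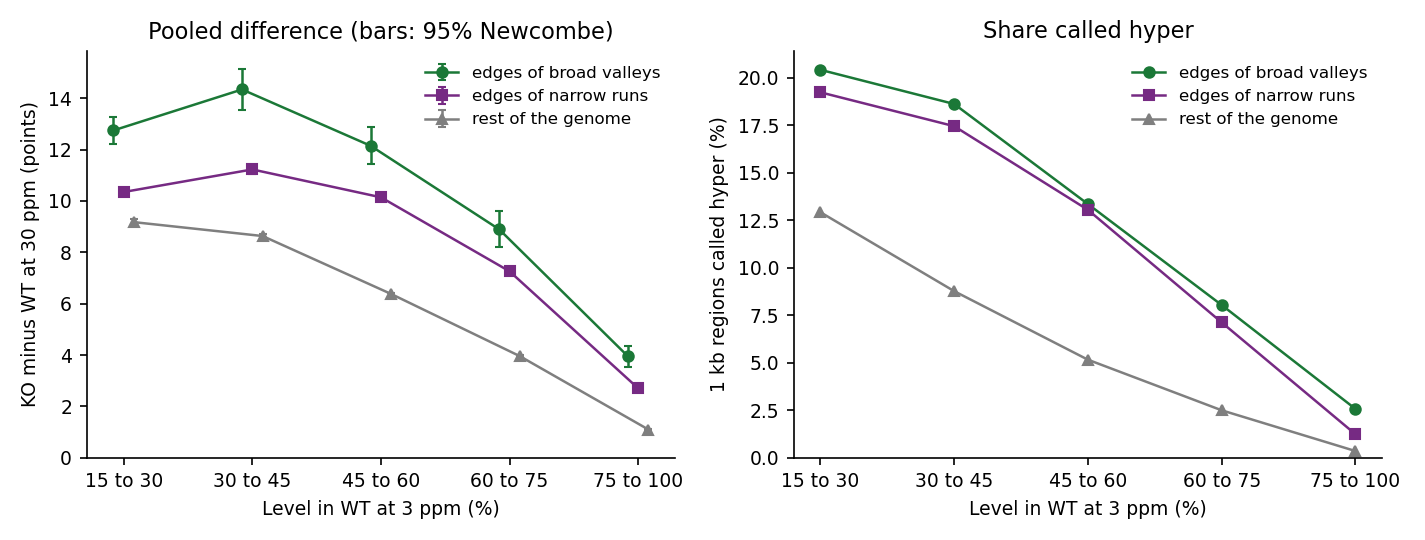
KO minus WT at 30 ppm in points (left, bars are 95% Newcombe intervals for counting error) and the percentage of 1 kb regions called hyper (right), by the level in WT at 3 ppm, for edges of broad valleys, edges of narrow runs and the rest of the genome. Edges of broad valleys lie highest on the left, at 14.3 points in the 30% to 45% bin, and close to edges of narrow runs on the right.

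The share of regions called rose with the number of CpGs. Among edge regions with 3 to 5 tested CpGs 3.51% were hyper, with 6 to 9 CpGs 8.65%, and with 10 or more 20.3%, while the pooled difference was 8.35, 9.51 and 9.62 points. More CpGs bring more summed reads to a test. Other regions of the same CpG number are not set beside these shares, so the rise is not read as a trait of edges. Where a valley held the start of exactly 1 gene, the edge regions on the gene's downstream side differed by 10.8 points (10.3 to 11.3) and 84 of 551 were hyper (15.2%), and those upstream of the start by 7.94 points (7.43 to 8.45) with 48 of 587 hyper (8.18%). The downstream edges also had the lower WT level, 46.4% against 53.7% at 30 ppm.

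Fewer valleys were found in the KO libraries when the same rule was applied to each library in turn, though the median width was 5 regions in all 4. At 30 ppm 604 core regions (13.7%) stood at 15% or above in KO and 108 (2.45%) in WT. In KO at 3 ppm 588 did (13.3%). The share was largest at valley ends, 24.7% in KO against 5.47% in WT at 30 ppm, and in the third region in or deeper it was 7.61% and 1.13%. At 30 ppm the rule found 507 valleys in the KO library and 669 in the WT library, with 506 in the KO library at 3 ppm. Of the 640 valleys, 612 overlapped a valley of the WT library at 30 ppm, which left 28 without one, and 473 overlapped a valley of the KO library in each diet. A single library's own run covered the whole valley in 543 cases in WT at 30 ppm, in 267 in KO at 30 ppm and in 286 in KO at 3 ppm. Neither KO library had a valley of its own at 138 of them, of which 115 had one in WT at 30 ppm. Among those 138, 89 were only 4 regions wide, 0 were 10 or wider and the widest was 8.

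**Figure D4:**
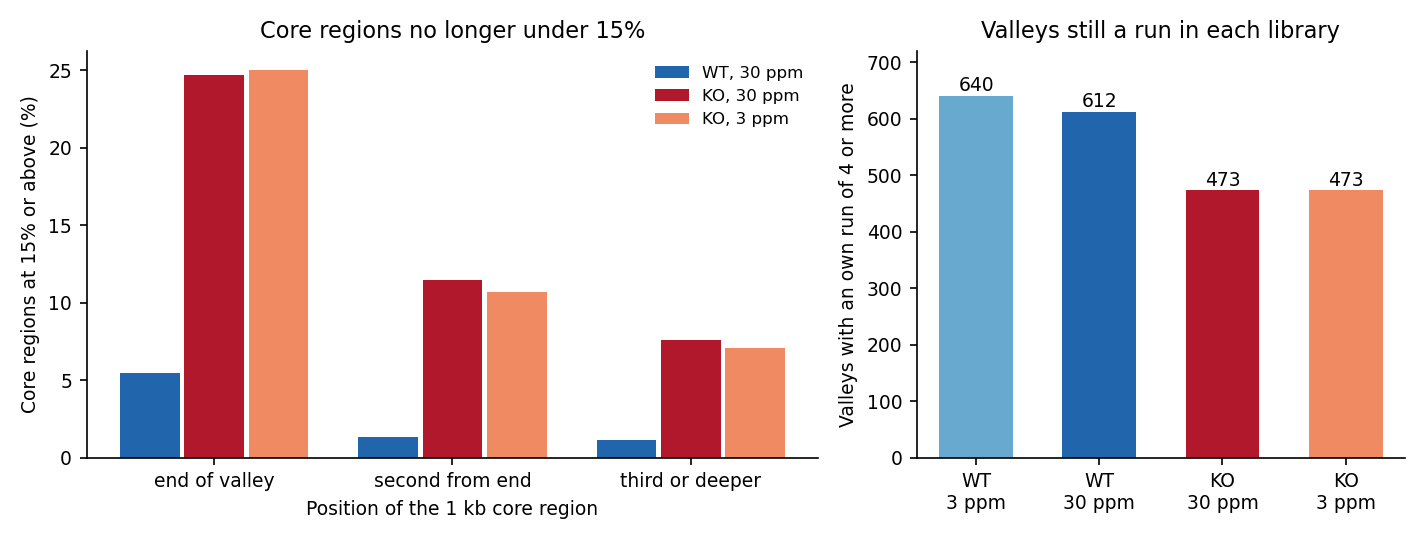
Left, percentage of 1 kb core regions at 15% methylation or above by position in the valley in the 3 libraries that did not choose the valleys; right, number of the 640 valleys that overlap a run of at least 4 low regions found in each library. In KO at 30 ppm 24.7% of end regions had reached 15% against 5.47% in WT, and 473 against 612 valleys kept a run.

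Across the boundary the levels were far apart, with a median of 4.17% in end core regions and 38.4% in first edge regions in WT at 30 ppm. The regions nearest to the 15% threshold were picked by their level. Core regions at 12% to 15% in the choosing library had a median of 12.6% in WT and 21.8% in KO at 30 ppm. First edge regions at 15% to 18% had medians of 14.3% and 26.2%. Runs of exactly 3 regions, just short of a valley, were pooled at 4.61% in WT and 8.68% in KO at 30 ppm, and runs of exactly 4 at 3.94% and 7.51%.

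The 10 widest valleys covered Hoxc genes on chromosome 15 (29 kb), Gata3 (27 kb), Barhl2 (25 kb), Dlx1 and Dlx2 (24 kb), Pax6 (24 kb), Hoxd3 and Hoxd4 (21 kb), Hoxa2 and Hoxa3 (20 kb), Hand2 (20 kb), Skor1 (20 kb) and a pair of long noncoding RNAs at chr13:83713001-83734000 (21 kb) with no protein-coding start within 50 kb. Their core levels at 30 ppm ran from 3.03% to 7.54% in KO and from 2.28% to 4.12% in WT, and KO lay above WT in 10 of 10. At the edges the difference ran from -3.81 points at the Hoxc valley, with 1 scored edge region, to 20.7 at Dlx1 and Dlx2. Skor1, which encodes a transcriptional corepressor, showed 1 edge with a steep difference. Its first region on the right, chr9:63152001-63153000, read 54.4% in KO against 12.03% in WT at 30 ppm, with 49.0% and 17.96% at 3 ppm (adjusted p = 3.12e-15, exact test at 30 ppm). Its first region on the left read 49.1% and 38.5% at 30 ppm (adjusted p = 0.156, exact test). Barhl2, a homeobox gene of spinal cord and retinal neurons, also differed on 1 side, with 41.5% in KO against 13.95% in WT at 30 ppm in the first region on the left (adjusted p = 2.96e-08, exact test) and 50.8% and 57.1% on the right (adjusted p = 0.929). Gata3, which encodes a transcription factor of several neuron types and of T cells, had an edge difference of 0.820 points with an interval of -4.99 to 6.65. On the left, its first edge region read 34.3% in KO against 18.75% in WT at 30 ppm (adjusted p = 0.908, exact test). WT had only 16 reads there, summed over CpGs. On the right, the first region read 50.0% and 33.96% (adjusted p = 0.633, exact test), while the outer regions stood above 80% in both libraries.

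The largest edge differences were taken among the 34 valleys that had at least 3 scored edge regions with 2 or more hyper. Since size chose them, the values are a description. The first 10 ran from 22.3 points at the valley nearest Nr4a2 to 29.2 at Tfap2b. The others were at Ankrd63 (28.1), Sox17 (25.9), chr12:117151001-117157000 within Ptprn2 (24.7), Qk (24.5), the valley nearest Hoxb13 (23.9), Kcnh3 (23.8), Crmp1 (22.98) and Gdnf (22.5). In 9 of these 10 valleys the edge level in KO at 3 ppm also lay above that of WT at 3 ppm. The exception was Qk, which encodes an RNA-binding protein of glia. Its edge read 66.2% in KO against 41.7% in WT at 30 ppm, but KO lay lower at 3 ppm, with 53.8% and 64.4%. The edge difference nearest Hoxb13 was 13.6 points with at least 10 reads per CpG. At Gdnf, a survival factor for neurons, the edge levels were 71.9% in KO against 49.4% in WT at 30 ppm, with 69.7% and 48.3% at 3 ppm. The first core region on the left of that valley also differed, at 34.8% and 10.8% at 30 ppm (adjusted p = 4.99e-05, exact test), the next 4 core regions stayed below 5% in every library, and the sixth, chr15:7814001-7815000, was hyper again, at 20.8% in KO against 7.39% in WT at 30 ppm (adjusted p = 0.00346, exact test), with 22.6% and 4.11% at 3 ppm. On the left of Tfap2b, the outer edge region read 44.2% in KO against 2.02% in WT at 30 ppm (adjusted p = 1.27e-11, exact test). The inner one read 52.8% and 16.5% (adjusted p = 0.00234, exact test). Unlike at Gdnf, the first core region was not called, at 23.7% and 11.4% (adjusted p = 0.437, exact test). The second core region was hyper, at 25.9% and 3.61% (adjusted p = 2.47e-12, exact test). In that core region KO at 3 ppm read 12.3% and WT at 3 ppm 6.28%.

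**Figure D5:**
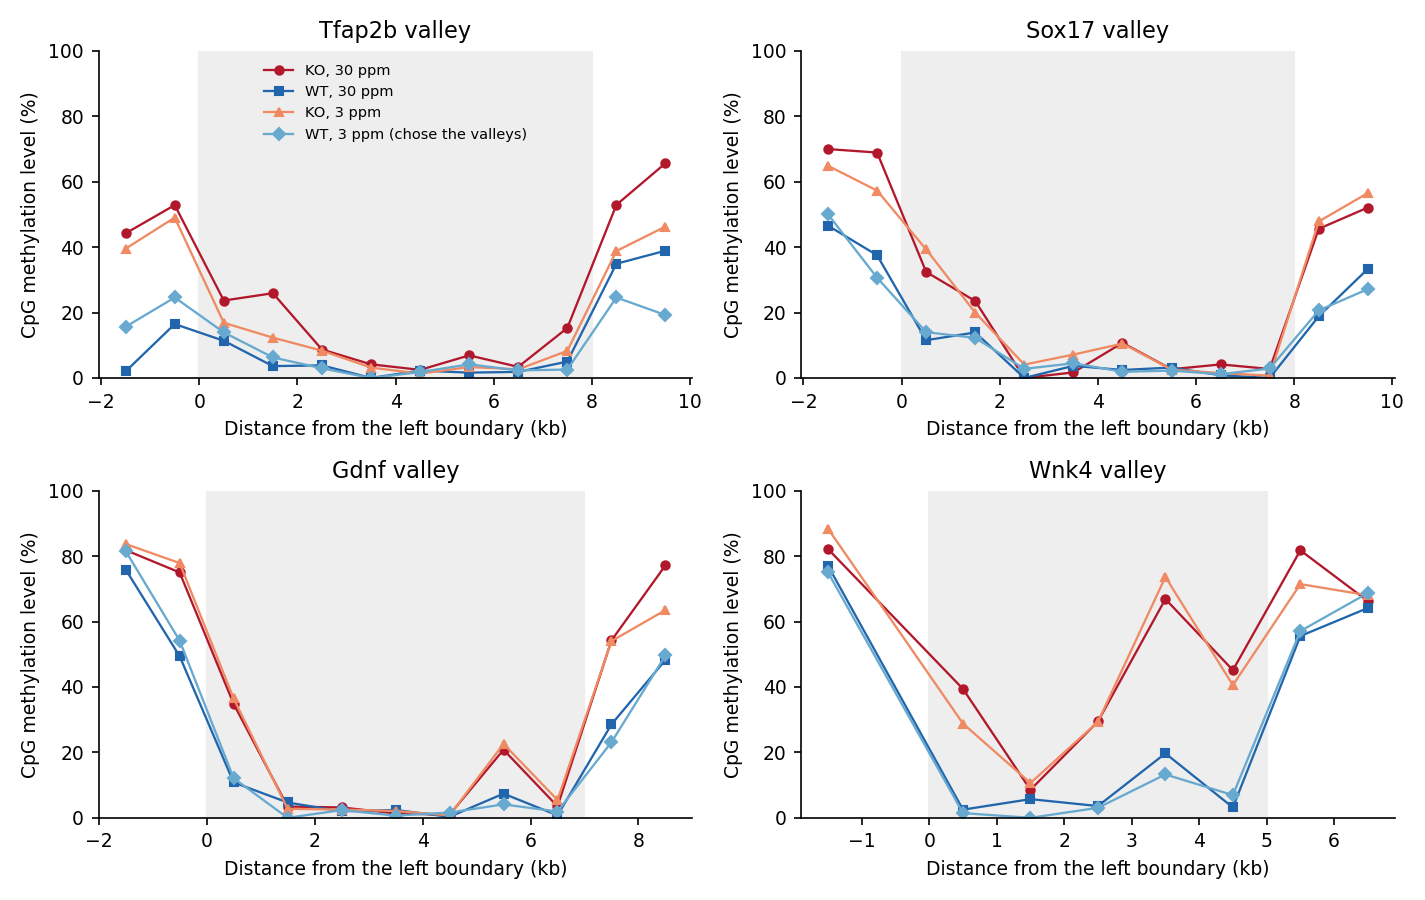
Methylation level (%) of each tested 1 kb region by distance (kb) from the left boundary in the Tfap2b, Sox17, Gdnf and Wnk4 valleys, with the core shaded, for the 4 libraries. At Tfap2b, Sox17 and Gdnf the KO libraries lie above WT at most edge regions and levels fall inside the core, though the sixth core region of Gdnf reads 20.8% in KO at 30 ppm, whereas at Wnk4 4 of the 5 core regions were hyper at 30 ppm.

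The largest core differences, again chosen by size, were at Wnk4 (35.4 points), Cbln1 (22.3), Gdf7 (22.1), Pea15a (19.6) and Adm (19.2). All 5 valleys were 4 or 5 regions wide. Wnk4 encodes a kinase that regulates ion cotransport, and its core read 41.9% in KO against 6.49% in WT at 30 ppm, with 41.8% and 6.27% at 3 ppm, so both KO libraries stood above both WT libraries. Cbln1, a secreted organiser of cerebellar synapses, read 25.8% and 3.51% at 30 ppm but 8.43% and 2.81% at 3 ppm. Its first core region on the left read 33.2% in KO at 30 ppm and 8.88% in KO at 3 ppm, so the library of KO at 30 ppm stood apart from the other 3. The core of Gdf7, a BMP ligand of the roof plate, read 27.0% and 4.85% at 30 ppm, with 19.8% and 4.14% at 3 ppm. Pea15a, which encodes a phosphoprotein of astrocytes, read 22.1% and 2.45% at 30 ppm, with 19.1% and 8.28% at 3 ppm. Adm, which encodes the peptide adrenomedullin, read 22.9% and 3.75% at 30 ppm, with 23.9% and 4.93% at 3 ppm.

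Low edge differences among valleys with at least 3 scored edges were at Hfe2 (-8.49 points, -14.7 to -2.11), Tshz3 (-7.58, -15.5 to 0.502), Ostm1 (-4.75) and Rbpms (-3.37). No edge region of these valleys was called in either direction. Of these, Hfe2 had the single interval wholly below 0, but its sides taken apart read -0.719 points on the left and -3.68 on the right, and its pooled value was -1.13 with at least 10 reads per CpG and -2.08 as an unweighted mean over CpGs. The left edge region of Hfe2 was itself low, at 1.25% in KO against 1.97% in WT at 30 ppm. That valley overlaps no annotated gene, and the start of Hfe2 lies 21.2 kb away. At Tshz3 the sides read -2.44 points on the left and 0 on the right, and the unweighted mean was -0.506. The scored region on its right read 0% in KO and in WT at 30 ppm. At Ostm1 they read 8.21 and -9.54, and the pooled value was -9.49 (-18.5 to -0.129) with at least 10 reads per CpG. At Rbpms they read 6.15 and -6.32, and the unweighted mean was -1.07. At 3 ppm KO minus WT was 6.56 points at the edges of Hfe2, 9.54 at Tshz3, 6.08 at Ostm1 and 6.02 at Rbpms.

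Gene groups are set against all valleys, where 11.6% of edge regions were hyper and the pooled difference was 9.41 points. Edges of the 6 Sox valleys read 53.4% in KO against 39.4% in WT at 30 ppm (95% interval of the difference 11.3 to 16.7 points), with 7 of 22 regions hyper, and all 6 valleys were above 0. T-box valleys had 5 of 23 hyper and 11.1 points, forkhead valleys 5 of 30 and 11.1 points, and BMP and FGF valleys 5 of 19 and 12.8 points. As a median over valleys the edge difference was 13.3 points for Sox, 15.1 for T-box, 11.6 for forkhead and 7.97 for BMP and FGF genes, beside 9.16 for all valleys. The 22 Hox valleys had low edges, 21.6% in KO against 12.8% in WT, with 8.84 points and 2 of 36 regions hyper. That pooled WT level lies below the 15% set for a core region, so part of these edges were themselves low. At the Hoxa2 valley the 1 scored edge region was the second on the left, at 4.86% in WT at 30 ppm. The Hox value is therefore not read as that of borders like those of all valleys. The 73 valleys of other homeobox genes had 9.65 points and 21 of 227 hyper, and 66 of the 71 scored were above 0. The remaining groups, in no order, were basic helix-loop-helix (8.81 points, 7 of 60), axon guidance (9.58, 1 of 22), Wnt pathway (9.66, 2 of 28), zinc finger (7.57, 3 of 65) and nuclear receptor valleys (6.92, 0 of 13). Kcnh3 was the single potassium channel valley, with 2 of 4 hyper. Over all valleys 184 of 4412 core regions (4.17%) were hyper and the core difference was 2.36 points. Beside that, cores of BMP and FGF valleys had 4 of 28 regions hyper and 5.98 points, those of basic helix-loop-helix valleys 13 of 144 and 4.61 points, and those of T-box valleys 3 of 76 and 3.16 points. The BMP ligand Gdf7, given above for its large core difference, had 3 hyper core regions. Gdf6 had 1 and Fgf9 0, with core differences of 5.50 and 0.764 points. No median over valleys was taken for cores of a group, so 1 valley can carry a pooled value. Cores of other homeobox valleys had 14 of 767 hyper and 1.87 points, those of forkhead valleys 2 of 87 and 1.54 points, and those of Sox valleys 0 of 48 and 2.15 points. Of the pair of widest Sox valleys, the edges of Sox2, a factor that maintains neural progenitors, read 38.02% in KO against 22.9% in WT at 30 ppm, but 31.8% and 28.5% at 3 ppm, while those of Sox14, a factor of inhibitory neurons, differed by 7.31 points at 30 ppm and 8.17 at 3 ppm. Of the widest forkhead valleys, Foxa1, a factor of the floor plate, had edges 13.2 points higher in KO at 30 ppm and 10.3 at 3 ppm. Those of Foxb1, a forkhead factor of the developing brain, read 36.02% and 19.95% at 30 ppm, and 32.5% and 26.97% at 3 ppm. Ptf1a, a basic helix-loop-helix factor of cerebellar and spinal inhibitory neurons, was high in its core too, at 14.7% in KO against 6.44% in WT at 30 ppm, with 13.6% and 6.22% at 3 ppm, whereas the core of Hand2, the widest of that group, read 3.03% and 2.30% at 30 ppm. No group was compared with another by a test.

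The diet contrast in KO was small beside this. At 30 ppm against 3 ppm in KO, 4 of 1902 edge regions were hyper (0.210%) and 2 hypo (0.105%), where 0.043% and 0.0253% of all regions were. In cores 8 of 4412 were hyper (0.181%) and 3 hypo (0.0680%). The pooled edge level was 56.2% and 55.3%, a difference of 0.928 points (0.668 to 1.19), and the median over edge regions 0.675 points, where all tested regions had 0.694 pooled and 0.758 as median. In cores the pooled difference was -0.550 points and turned to 0.0998 (0.0287 to 0.171) without the 2 valleys of high depth, so its sign rested on them. With at least 10 reads per CpG the edge difference also changed sign, to -0.354. The median over core regions was 0. Valleys were divided about evenly, with the edge above 0 in 359 of 632 and the core in 335 of 640.

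At 3 ppm the WT library had chosen the valleys, so KO minus WT is a description there. The edges read 55.3% in KO against 48.2% in WT, 7.10 points apart, and the cores 7.99% and 4.90%. The WT library at 30 ppm, which took no part in the choice, read 46.8% in edges and 5.08% in cores, so WT at 30 minus 3 ppm was -1.39 points in edges and 0.176 in cores. Choosing, diet, embryo and litter cannot be told apart in these values. To score the 3 ppm pair without the choice, valleys were also chosen in WT at 30 ppm, which gave 669 valleys. Their 1987 edge regions read 57.1% in KO against 49.7% in WT at 3 ppm, 7.37 points apart (7.13 to 7.61). Of these edges, 248 (12.5%) were hyper and 1 hypo at 3 ppm, where 1.1% and 0.114% of all regions were. Of the 4583 core regions 246 (5.37%) were hyper, with a difference of 2.67 points. KO therefore lay above WT at valley edges in both diets, in libraries that had not chosen the valleys.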

How the data were processed

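WGBS was performed on genomic DNA of 4 E11.5 brains. Per the study's methods and the submitters' processing notes, the authors trimmed reads with Trim Galore (0.6.10), aligned them with Bismark (0.23.1) to mouse GRCm38.p6 (mm10), removed duplicates and merged both strands of a CpG. For each CpG the deposited tables hold the fraction of methylated reads computed by the authors and the unnormalised count of covering reads. Their product lay within 4.37e-11 of a whole number and was rounded to methylated reads. Positions count from 0, and all 14907672 tested CpGs then lay on a CG of GRCm38. Coordinates are given from 1. The 12 deposited lists of differentially methylated regions hold the authors' comparisons and were not used.

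Regions, valleys and edges were built as stated in the report. Samples were grouped by their titles. Levels carry Wilson and differences Newcombe 95% intervals. Fisher's exact test was run per region between pairs of libraries with Benjamini-Hochberg adjustment. Scripts used Python 3.11.15, numpy 2.4.6, scipy 1.17.1 and numba 0.67.0 and were tested on simulated data. Starts and overlaps came from GENCODE protein-coding genes, and sequences from RefSeq's GRCm38.p6. Named were the 10 widest valleys, the 10 largest edge differences among valleys with at least 3 scored edges and 2 hyper, the 5 largest core differences, the 5 lowest edge differences (1 of which is not reported here), and those of 14 gene lists. Tfap2b, Hoxb13, Crmp1, Nr4a2, Wnk4, Cbln1, Hfe2, Tshz3 and Ostm1 name the nearest start outside the core. The members and lists were chosen with earlier results of these data known. Alternatives were minimum reads, minimum CpGs, the level threshold, run length, gaps, depth, weighting, chromosome 10, the minimum difference and the choosing library, and, after seeing the data, leaving out valleys over 3 times the median depth.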

Additional observations from a re-analysis of the deposited data

Results flagged for a closer look

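At valley edges, 30 minus 3 ppm was 0.928 points in KO and -1.39 points in WT, opposite in sign. Over all tested regions the signs were opposite too, at 0.694 points in KO and -0.664 in WT. In cores it was -0.550 points in KO and 0.176 in WT, but without the 2 valleys of high depth both were above 0, at 0.0998 and 0.109. With 1 library per group, the difference between the genotypes was not tested, and the WT library at 3 ppm had chosen the valleys.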

How the results depend on the processing

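With 10 reads per CpG, 229 valleys were found, edge differences were 7.20 points for KO minus WT at 30 ppm, 6.01 at 3 ppm and -0.354 for 30 minus 3 ppm in KO, core differences 1.70 and -1.67, 2.72% of core regions were hyper at 30 ppm, and 0 edge and 0 core regions were hyper between diets in KO. With 5 CpGs per region, KO minus WT was 8.84 at edges and 2.22 in cores at 30 ppm, and 6.80 at edges at 3 ppm. With low regions below 10%, it was 9.13 and 2.13, 2.65% of core regions were hyper, 0.121% of edges were hyper between diets, and the core diet difference turned to 0.138. Below 20%, KO minus WT was 8.55 and 2.82 at 30 ppm and 6.46 at edges at 3 ppm, the core diet difference -0.462 and the hyper share of edges between diets 0.0925%. With runs of 6 or more, 304 valleys were found, with a core difference of 1.86, 7.41 at edges at 3 ppm, and diet differences of 0.639 (edges) and -0.786 (cores). A gap of 1 untested region gave a core difference of 2.50 and 0.0917% of edges hyper between diets. Thinning gave 0.0526% of edges and 0.0907% of cores hyper between diets. Unweighted means over CpGs gave 9.10 for KO minus WT at edges, 0.569 for diet at edges and 0.0377 for diet in cores. Without chromosome 10 the core difference was 2.28, and without the 2 deep valleys, chosen after seeing the data, 2.72, with a core diet difference of 0.0998. Valleys chosen in WT at 30 ppm gave 7.37 at edges at 3 ppm.

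KO minus WT thus kept its sign under each of these settings, while diet differences in KO changed sign under 4. The hyper share of edges at 30 ppm stayed between 8.47% and 14.04%. The share over all tested regions was computed for the main setting only. The cause of these moves was not tested. Of 56 values of named valleys under 3 of these settings, 50 lay within the interval of the value reported and 0 changed sign. Hoxb13 edges were at 13.6 points with 10 reads per CpG. With that minimum the core differences were larger than reported at Wnk4 (48.7 points, 25.1 to 65.4), Cbln1 (31.2) and Gdf7 (30.0). The remaining values outside their interval were those of Hfe2 given above. No paired analysis was possible because the labels give no replicate numbers that tie libraries across groups. A fit over both diets with diet as a term, which would use the library that chose the valleys and leave 1 residual degree of freedom, was not run. Leaving out 1 library would empty its group. Edge regions held a median of 104.5 to 171 reads summed over CpGs, where a read counts at each CpG it covers.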
